A study of Homo sapiens with 9 samples.

Results

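Collagens are the main fibrous proteins of the extracellular matrix, and the genes described here encode their chains together with the enzymes that hydroxylate and cross-link them and the chaperone that escorts them. Members were all protein-coding genes of the deposited table named as a collagen chain, together with 12 named genes: the prolyl hydroxylase subunits P4HA1 to P4HA3, the lysyl hydroxylases PLOD1 to PLOD3, the lysyl oxidases LOX and LOXL1 to LOXL4, and the chaperone gene SERPINH1. This gave 56 members, 44 chains and 12 others, among 45754 genes in the table. Of these, 24 reached 1 FPKM (fragments per kilobase of gene per 1000000 fragments of the library) in at least 3 of the 9 libraries, namely 16 chains and 8 enzymes or chaperones. Members were matched by name alone.

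The study profiled mRNA of cultured H441 cells, a human lung adenocarcinoma line by its label, in 9 libraries. The groups were cells given 10 µM of the compound RSGL for 24 h, cells given 10 µM of the compound BSGL for 24 h, and cells given 0.1% DMSO, the solvent control, for 24 h, with 3 libraries each. All groups share the same line label and medium, but a genotype tag names A549 for the RSGL libraries and H460 for the BSGL and control libraries, which are other lung cancer lines, and the treatment note speaks of 1 replicate. The labels do not name separate cultures, so p-values measure the spread between these libraries, which may be technical in part. The libraries held 16720414 to 18738947 fragments in genes, and 12213 to 12338 genes reached 1 FPKM. Of 9 lung lineage genes for which H441 is known, 0 passed the filter. NKX2-1, the defining factor, was at 0.0596 FPKM or lower and the surfactant gene SFTPB at 0.039 FPKM or lower in each library, and the summed level of the 9 was 1.06 to 1.20 FPKM with RSGL, 1.36 to 1.59 FPKM with BSGL and 1.46 to 2.29 FPKM in control. Because the genotype tag differs between the RSGL libraries and the others, a difference of line and an effect of RSGL cannot be told apart from the labels.

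A collagen molecule is a triple helix of chains whose repeating glycine and proline residues allow tight winding. Chains are made into the endoplasmic reticulum, where prolyl and lysyl hydroxylases modify them and the chaperone encoded by SERPINH1 binds the finished helix; after secretion and trimming, lysyl oxidases cross-link them. Type IV chains build the sheet of basement membranes on which lung epithelium sits, types I, III and V build fibrils and are known mostly from fibroblasts, and type VI forms beaded filaments.

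The type IV genes lie in head-to-head pairs, which is shown first because the paired genes read away from a shared stretch of DNA. On GRCh38, COL4A1 (gene ID 1282, chromosome 13, 110148958 to 110307157, minus strand) and COL4A2 (1284, chromosome 13, 110307284 to 110513027, plus strand) start 126 bases apart. COL4A6 (1288, chromosome X, 108155607 to 108439497, minus strand) and COL4A5 (1287, chromosome X, 108439844 to 108697545, plus strand) have 346 bases between their starts in the table. COL4A4 and COL4A3 on chromosome 2 have 5 bases between theirs in the table. Between RefSeq starts the gap is 418 bases for COL4A4 and COL4A3 and 379 bases for COL4A6 and COL4A5. The RefSeq promoter windows (GRCh38.p14, 250 bases before to 50 after a start) of COL4A2, at chr13:110307034-110307333, and of COL4A5, at chrX:108439588-108439887, are printed on the plus strand from 5′ to 3′. Capitals mark the bases between the RefSeq starts of the paired genes that fall in the window.
COL4A2: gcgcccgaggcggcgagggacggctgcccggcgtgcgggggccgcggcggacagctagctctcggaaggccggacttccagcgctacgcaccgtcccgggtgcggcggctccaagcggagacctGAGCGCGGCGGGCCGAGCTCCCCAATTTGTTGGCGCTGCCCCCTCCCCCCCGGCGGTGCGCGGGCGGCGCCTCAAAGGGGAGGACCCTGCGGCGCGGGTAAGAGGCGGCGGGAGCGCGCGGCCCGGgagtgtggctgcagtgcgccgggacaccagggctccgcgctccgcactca
COL4A5: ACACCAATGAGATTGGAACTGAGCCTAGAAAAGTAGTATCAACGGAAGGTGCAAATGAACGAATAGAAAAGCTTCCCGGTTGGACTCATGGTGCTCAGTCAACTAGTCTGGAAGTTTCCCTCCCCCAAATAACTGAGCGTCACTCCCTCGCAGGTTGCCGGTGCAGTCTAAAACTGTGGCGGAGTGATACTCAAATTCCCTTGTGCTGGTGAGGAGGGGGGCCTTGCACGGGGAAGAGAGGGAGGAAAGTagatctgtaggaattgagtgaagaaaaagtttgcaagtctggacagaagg
The COL4A2 window overlaps that of COL4A1 by 226 bases and is 77.7% G or C, and the COL4A5 window overlaps that of COL4A6 by 121 bases and is 49.3% G or C. The letters CCAAT, read on both strands, occurred 1 time in the COL4A2 window and 2 times in the COL4A5 window, and 34.6% of 35116 RefSeq promoter windows of this length hold them.

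P4HA2 and PLOD2 are both known as targets of the hypoxia factor HIF, and their levels under RSGL lay on opposite sides of control. Their RefSeq promoter windows (GRCh38.p14, minus strand, P4HA2 at chr5:132227042-132227341 and PLOD2 at chr3:146161135-146161434) are shown for that reason. Capitals mark ACGTG or GCGTG on either strand, the core letters of the HIF site.
P4HA2: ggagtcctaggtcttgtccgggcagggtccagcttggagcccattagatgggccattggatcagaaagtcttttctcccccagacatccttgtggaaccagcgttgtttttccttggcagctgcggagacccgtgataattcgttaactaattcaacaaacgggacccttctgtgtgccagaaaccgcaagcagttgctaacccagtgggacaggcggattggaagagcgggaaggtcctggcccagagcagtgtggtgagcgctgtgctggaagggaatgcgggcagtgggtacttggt
PLOD2: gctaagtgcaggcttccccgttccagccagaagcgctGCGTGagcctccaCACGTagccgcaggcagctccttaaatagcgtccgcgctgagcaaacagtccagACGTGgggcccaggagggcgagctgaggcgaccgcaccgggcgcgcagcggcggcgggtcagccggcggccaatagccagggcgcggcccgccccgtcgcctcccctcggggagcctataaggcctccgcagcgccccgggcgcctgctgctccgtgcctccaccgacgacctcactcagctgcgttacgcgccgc
The core occurred 3 times in the PLOD2 window, and these letters are not in the P4HA2 window. Both windows rest on annotated starts other than the table's. Of 35116 RefSeq windows 48.4% hold the core, and of 25 windows that matched 19 of the 24 passing members 52.0% did. The AP-1 letters TGANTCA, read on both strands, occurred in 0 of those 25 windows and in 7.71% of all windows, and the ATF4 and CHOP letters TGATGNAA in 1 of 25 and in 3.62% of all. Matches are letters in a window and were not related to binding.

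Under RSGL, collagen genes moved in both directions. The fibril chain COL5A1 and the basement membrane chain COL4A1 fell, whereas the transmembrane collagen COL13A1 and the type VI chains COL6A1 and COL6A2 rose. Of the 24 members that passed the filter, 7 rose and 12 fell by limma with Benjamini-Hochberg adjustment over all 12775 genes tested, and the changes lay between -1.07 and 1.07 on the log2(FPKM + 1) scale. Over all genes tested 54.8% were called, 27.2% higher and 27.6% lower, beside which the 19 of 24 members called stand. The median change of the 24 was -0.12, against -0.0009 over all genes. COL1A1 and COL21A1 passed the filter through the BSGL and control libraries only, with RSGL libraries all under 1 FPKM, and so had to differ. Without them 7 of 22 rose and 10 fell, with a median of -0.07. The libraries of RSGL and control did not overlap for 21 of 24 members, where 61.2% of all genes did not overlap. The count was 7 higher and 12 lower with a common sum of FPKM and with a median-of-ratios factor, and 7 higher and 11 lower with quantile scaling. Of all 12775 genes 2897 were higher and 3773 lower with a common sum. With a median-of-ratios factor 3559 were higher and 3470 lower, and with quantile scaling 3382 and 3578.

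**Figure D1:**
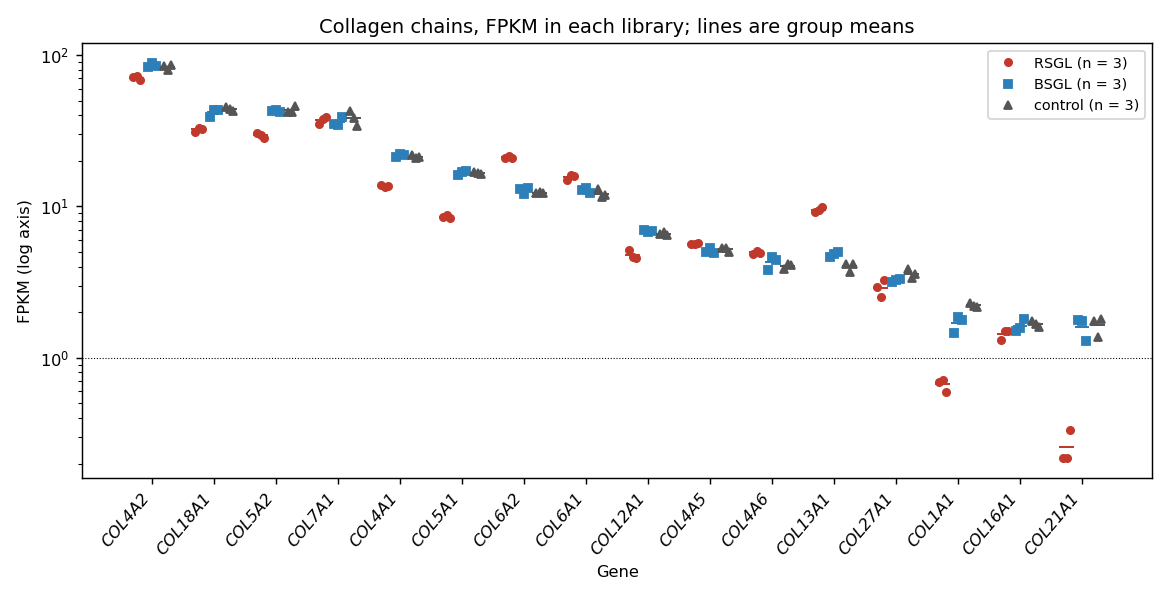
FPKM of the 16 collagen chains that passed the filter (log axis) in each of 3 RSGL, 3 BSGL and 3 control libraries, with lines at group means and a dotted line at 1 FPKM. RSGL libraries lie below the others for COL4A1, COL5A1, COL1A1 and COL21A1 and above them for COL6A2 and COL13A1, while BSGL libraries lie close to control in most genes.

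COL4A2, a chain of the basement membrane sheet, had the highest FPKM of all chains in control. COL4A2 had 71.0, 73.2 and 68.8 FPKM in RSGL libraries, 83.6, 88.3 and 84.8 FPKM in BSGL libraries and 84.6, 80.2 and 85.4 FPKM in control libraries. COL4A1 had 13.8, 13.5 and 13.6 FPKM with RSGL, 21.1, 22.1 and 21.7 FPKM with BSGL and 21.7, 21.0 and 21.2 FPKM in control. In both genes every RSGL library lay below every BSGL and control library. COL4A1 fell by 0.61 on the log2(FPKM + 1) scale under RSGL relative to control (SE 0.0331, adjusted p = 2.65e-07), and COL4A2 fell by 0.23 (SE 0.0374, adjusted p = 0.000544). The partners on chromosome X had higher means with RSGL. COL4A6, at 4.97 ± 0.111 FPKM in RSGL libraries and 4.03 ± 0.163 FPKM in control (SD, n = 3), rose by 0.25 (SE 0.0612, adjusted p = 0.00651), and COL4A5, at 5.66 ± 0.0416 FPKM in RSGL libraries and 5.19 ± 0.197 FPKM in control, did not pass (adjusted p = 0.0715). Since the table sums cells, fewer cells expressing a gene and less RNA per cell cannot be told apart here or below.

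The ratio of COL4A2 to COL4A1 within a library was 5.16, 5.43 and 5.07 with RSGL, 3.97, 3.99 and 3.91 with BSGL and 3.90, 3.82 and 4.03 in control, in FPKM. The RSGL libraries did not overlap the other 6. The mean log2 ratio was 0.41 higher with RSGL than in control (two-sided exact permutation test, p = 0.1, which is the smallest p that 3 against 3 libraries allow). With BSGL it differed from control by 0.015 (two-sided exact permutation test, p = 0.6), and with RSGL it was 0.40 higher than with BSGL (two-sided exact permutation test, p = 0.1). The height of this ratio rests on the gene lengths of the table, 6264 bases for COL4A2 and 15600 for COL4A1, whereas the longest coding transcripts in GENCODE 29 measure 6494 and 6616 bases. As plain fragments the ratio averaged 2.10 with RSGL, 1.59 with BSGL and 1.57 in control. Length does not touch relative differences of this ratio between libraries. It does enter differences of log2(FPKM + 1), through the added 1. Other paired chains differed in both directions: the ratio of COL5A2 to COL5A1 averaged 3.44 ± 0.104 with RSGL, 2.56 ± 0.104 with BSGL and 2.60 ± 0.171 in control, and that of COL6A2 to COL6A1 averaged 1.35 ± 0.0503 with RSGL, 0.998 ± 0.0833 with BSGL and 1.02 ± 0.0697 in control (SD, n = 3). For COL4A6 to COL4A5 it averaged 0.879 ± 0.0159 with RSGL, 0.838 ± 0.0717 with BSGL and 0.778 ± 0.0524 in control, and the RSGL and BSGL libraries overlapped. The ratio of COL4A4 to COL4A3, both under the filter, was lower with RSGL, at 1.11 to 1.26 in RSGL libraries, 1.35 to 1.69 in BSGL libraries and 1.60 to 2.15 in control libraries, and the RSGL libraries did not overlap the others. These 4 ratios were not tested.

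**Figure D2:**
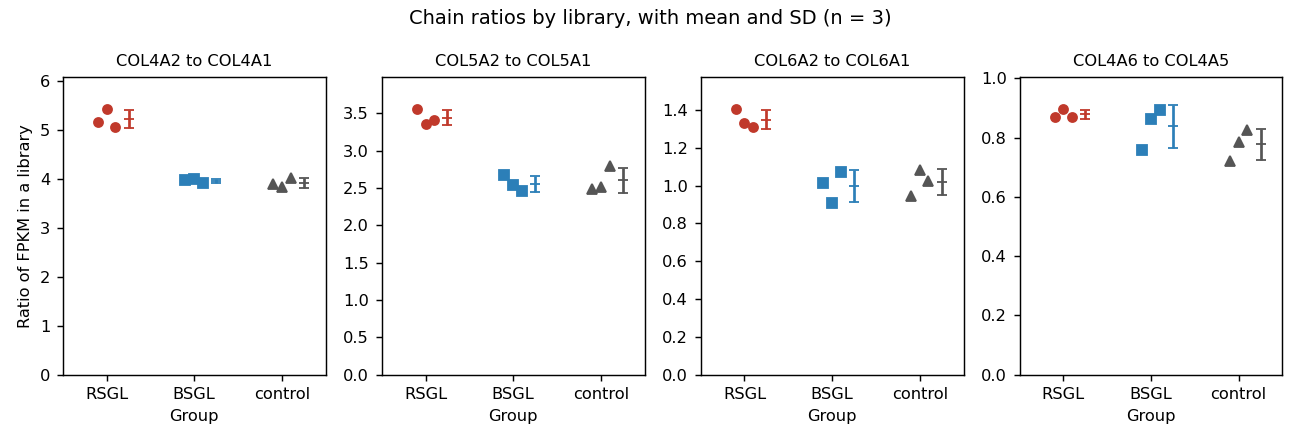
Ratio of FPKM between paired collagen chains in each of 3 RSGL, 3 BSGL and 3 control libraries, with the mean and SD beside the points. The ratio of COL4A2 to COL4A1 lay between 5.07 and 5.43 with RSGL and between 3.82 and 4.03 in control, and the ratios of COL5A2 to COL5A1 and of COL6A2 to COL6A1 were also higher in each RSGL library than in any other.

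Of the fibril chains, COL5A1, COL5A2, COL1A1 and COL27A1 passed the filter. COL5A1 (1289, chromosome 9, 134641790 to 134844843), which sets the width of fibrils, had 8.55, 8.81 and 8.33 FPKM in RSGL libraries, 16.1, 16.9 and 17.1 FPKM in BSGL libraries and 17.0, 16.6 and 16.4 FPKM in control libraries. Its partner COL5A2 (1290, chromosome 2, 189031915 to 189225301) had 30.4, 29.6 and 28.4 FPKM with RSGL, 42.9, 43.0 and 42.2 FPKM with BSGL and 42.3, 41.9 and 45.9 FPKM in control. Both chains were lower in each RSGL library than in any other library. COL5A1 fell by 0.89 (SE 0.0385, adjusted p = 5.96e-08) and COL5A2 by 0.54 (SE 0.0416, adjusted p = 3.04e-06) relative to control, on the log2(FPKM + 1) scale. The third type V chain, COL5A3, did not pass the filter, at 0.333 FPKM or lower in each library.

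COL1A1 (1277, chromosome 17, 50184096 to 50201648), a chain of type I, the most common fibril collagen of the body, was low, with 0.697, 0.716 and 0.591 FPKM with RSGL, 1.45, 1.86 and 1.77 FPKM with BSGL and 2.29, 2.21 and 2.15 FPKM in control. It passed the filter through the BSGL and control libraries alone, so its difference of -0.95 between RSGL and control is given as a description, with no test. On recovered fragments limma-voom gave -1.73. Its partner COL1A2, without which type I forms only as a homotrimer, had 3 fragments in all 9 libraries together. COL3A1, the chain of type III, had 6 fragments in the RSGL libraries, 24 in the BSGL libraries and 17 in control. COL27A1, a fibril chain known from cartilage, fell by 0.24 (SE 0.0724, adjusted p = 0.0183), at 2.90 ± 0.362 FPKM with RSGL and 3.60 ± 0.249 FPKM in control (SD, n = 3), and this call was lost without control replicate 1 (adjusted p = 0.0686) or RSGL replicate 2 (adjusted p = 0.0625).

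Chains that bind to the surface of fibrils stood at low levels. COL12A1 had 5.14, 4.64 and 4.59 FPKM in RSGL libraries, 7.02, 6.76 and 6.87 FPKM in BSGL libraries and 6.54, 6.74 and 6.45 FPKM in control libraries, and it fell by 0.39 under RSGL (SE 0.0473, adjusted p = 7.63e-05). COL21A1, of the same class, had 0.216, 0.217 and 0.336 FPKM with RSGL, 1.77, 1.75 and 1.30 FPKM with BSGL and 1.76, 1.37 and 1.79 FPKM in control. It too passed the filter through the BSGL and control libraries alone, so its difference of -1.07 between RSGL and control is a description, with no test. The pseudocount understates it, and limma-voom on recovered fragments gave -2.68. It rests on 70 fragments in the RSGL libraries and 465 in control. COL16A1, at 1.44 ± 0.114 FPKM with RSGL and 1.68 ± 0.0744 FPKM in control (SD, n = 3), did not pass (adjusted p = 0.121). COL21A1 and COL16A1 were the passing members nearest to the filter, and COL17A1, a chain of hemidesmosomes that stood at 0.738 to 0.959 FPKM over the 9 libraries, was the nearest below it.

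Of the type VI chains, COL6A1 and COL6A2 passed the filter and rose under RSGL. COL6A2 (1292, chromosome 21, 46098071 to 46132849) had 21.0, 21.6 and 20.9 FPKM in RSGL libraries, 12.9, 12.1 and 13.2 FPKM in BSGL libraries and 12.3, 12.5 and 12.2 FPKM in control libraries. COL6A1 (1291, chromosome 21, 45981749 to 46005049), which lies 93021 bases before it on the same strand, had 14.9, 16.2 and 15.9 FPKM with RSGL, 12.8, 13.3 and 12.3 FPKM with BSGL and 13.0, 11.5 and 11.9 FPKM in control. In each gene the lowest RSGL library was above the highest of the other 6. The rises were 0.73 for COL6A2 (SE 0.0393, adjusted p = 2.38e-07) and 0.35 for COL6A1 (SE 0.0524, adjusted p = 0.000335). COL6A3, known as an obligate partner in most type VI filaments, did not pass the filter and had fewer fragments with RSGL, 17 in the RSGL libraries, 62 in the BSGL libraries and 53 in control (limma with no filter, adjusted p = 0.138 for RSGL against control). COL18A1 (80781, chromosome 21, 45405137 to 45513720), a basement membrane collagen that gives rise to endostatin, lies on the same chromosome and fell by 0.44 (SE 0.0468, adjusted p = 3.29e-05), at 32.2 ± 0.879 FPKM with RSGL, 41.9 ± 2.45 FPKM with BSGL and 43.9 ± 1.55 FPKM in control (SD, n = 3). Its gene body overlaps SLC19A1 on the opposite strand by 11204 bases, and the strand setting of the counting is not given, so its fragments and those of SLC19A1, at a mean of 4.03 FPKM, cannot be told apart there.

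COL13A1 (1305, chromosome 10, 69801885 to 69959148), a transmembrane collagen of cell adhesion sites, had the largest rise among the 24. It had 9.20, 9.51 and 9.85 FPKM in RSGL libraries, 4.63, 4.84 and 4.98 FPKM in BSGL libraries and 4.16, 3.70 and 4.19 FPKM in control libraries, and the 3 groups did not overlap. The rise with RSGL was 1.07 relative to control (95% interval 0.95 to 1.19, adjusted p = 1.38e-07), which was rank 203 among rises of the 12775 genes. COL7A1, the chain of the anchoring fibrils under epithelia, had 35.0, 37.6 and 39.0 FPKM with RSGL, 35.0, 34.6 and 39.0 FPKM with BSGL and 42.8, 38.1 and 34.1 FPKM in control. The groups overlapped and it did not pass (log2 -0.037, 95% interval -0.22 to 0.15, adjusted p = 0.723).

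As fragments, the 44 chains held 2080 ± 25.4 per 1000000 fragments in genes in RSGL libraries, 2519 ± 56.0 in BSGL libraries and 2552 ± 83.2 in control libraries (SD, n = 3). Of these, 76.2% came from COL4A2, COL7A1, COL4A1, COL5A2 and COL18A1. The 12 enzyme and chaperone genes held 1004 ± 5.66 per 1000000 with RSGL, 974.5 ± 17.2 with BSGL and 974.9 ± 24.2 in control. These sums are descriptions and follow the abundant members.

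**Figure D3:**
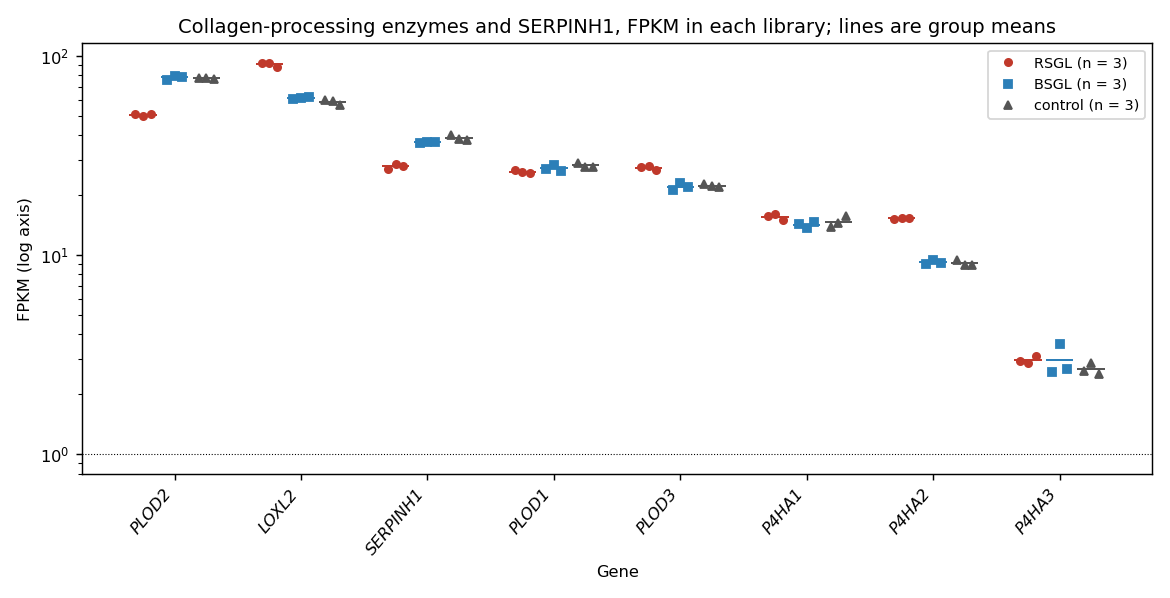
FPKM of the 7 enzyme genes and SERPINH1 that passed the filter (log axis) in each of 3 RSGL, 3 BSGL and 3 control libraries, with lines at group means and a dotted line at 1 FPKM. RSGL libraries lie below the others for PLOD2 and SERPINH1 and above them for LOXL2, PLOD3 and P4HA2.

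Enzymes of the same reaction moved in opposite directions under RSGL. Among the lysyl hydroxylases, PLOD2 (5352, chromosome 3, 146069436 to 146161495), which modifies the end regions of fibril collagens, had 51.2, 49.8 and 51.3 FPKM in RSGL libraries, 76.0, 79.8 and 78.6 FPKM in BSGL libraries and 77.5, 77.7 and 76.6 FPKM in control libraries. PLOD3 (8985, chromosome 7, 101205977 to 101217730), which also adds sugars to hydroxylysine, had 27.7, 28.1 and 26.7 FPKM with RSGL, 21.2, 23.0 and 22.0 FPKM with BSGL and 22.9, 22.2 and 21.9 FPKM in control. The PLOD3 gene overlaps ZNHIT1 on the opposite strand by 27 bases. Each gene's RSGL libraries lay apart from the other 6, below them for PLOD2 and above them for PLOD3. PLOD2 fell by 0.60 (SE 0.0294, adjusted p = 1.40e-07) and PLOD3 rose by 0.29 (SE 0.0388, adjusted p = 0.000147). The ratio of PLOD2 to PLOD3 was 1.85 ± 0.0779 with RSGL, 3.54 ± 0.0593 with BSGL and 3.46 ± 0.0647 in control (SD, n = 3). PLOD1, which hydroxylates the helix, was at 26.2 ± 0.510 FPKM with RSGL and 28.2 ± 0.807 FPKM in control (SD, n = 3) and fell by 0.10 (adjusted p = 0.0377), a call lost in 9 of 19 alternatives (adjusted p up to 0.133).

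Of the prolyl hydroxylase subunits, which make the hydroxyproline that stabilises the helix, P4HA2 (8974, chromosome 5, 132190147 to 132227863) rose. It had 15.2, 15.3 and 15.4 FPKM in RSGL libraries, 9.03, 9.51 and 9.12 FPKM in BSGL libraries and 9.43, 8.89 and 8.94 FPKM in control libraries, without overlap between RSGL and the others (log2 0.69, SE 0.0379, adjusted p = 2.81e-07). P4HA1, the more widely expressed subunit, had 15.7, 16.1 and 15.1 FPKM with RSGL, 14.3, 13.8 and 14.6 FPKM with BSGL and 13.9, 14.5 and 15.7 FPKM in control, which overlapped (adjusted p = 0.179). P4HA3 was at 2.98 ± 0.132 FPKM with RSGL, 2.96 ± 0.551 FPKM with BSGL and 2.67 ± 0.181 FPKM in control (SD, n = 3) and did not pass (adjusted p = 0.292). The ratio of P4HA2 to P4HA1 in FPKM was 0.980 ± 0.0351 with RSGL, 0.648 ± 0.0367 with BSGL and 0.621 ± 0.0563 in control (SD, n = 3).

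LOXL2 (4017, chromosome 8, 23296897 to 23404209), a lysyl oxidase known for cross-linking type IV collagen, was the most abundant cross-linking enzyme. It had 92.4, 92.0 and 88.6 FPKM in RSGL libraries, 60.7, 61.8 and 62.7 FPKM in BSGL libraries and 60.0, 59.3 and 56.7 FPKM in control libraries, and it rose by 0.62 under RSGL (SE 0.0325, adjusted p = 2.02e-07). Relative to COL4A2 it stood at 1.28 ± 0.0229 with RSGL, 0.721 ± 0.0200 with BSGL and 0.704 ± 0.0380 in control, as a ratio of FPKM (SD, n = 3). The other lysyl oxidases did not pass the filter. LOXL3 was highest of these, at 0.731 FPKM or lower in each library, and LOX was at 0.202 FPKM or lower. SERPINH1 (871, chromosome 11, 75562056 to 75572804), whose product HSP47 is a chaperone specific to collagen, had 27.2, 28.7 and 27.9 FPKM with RSGL, 36.4, 37.0 and 37.2 FPKM with BSGL and 40.4, 38.4 and 38.0 FPKM in control. It fell by 0.46 under RSGL relative to control (SE 0.0345, adjusted p = 2.42e-06).

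**Figure D4:**
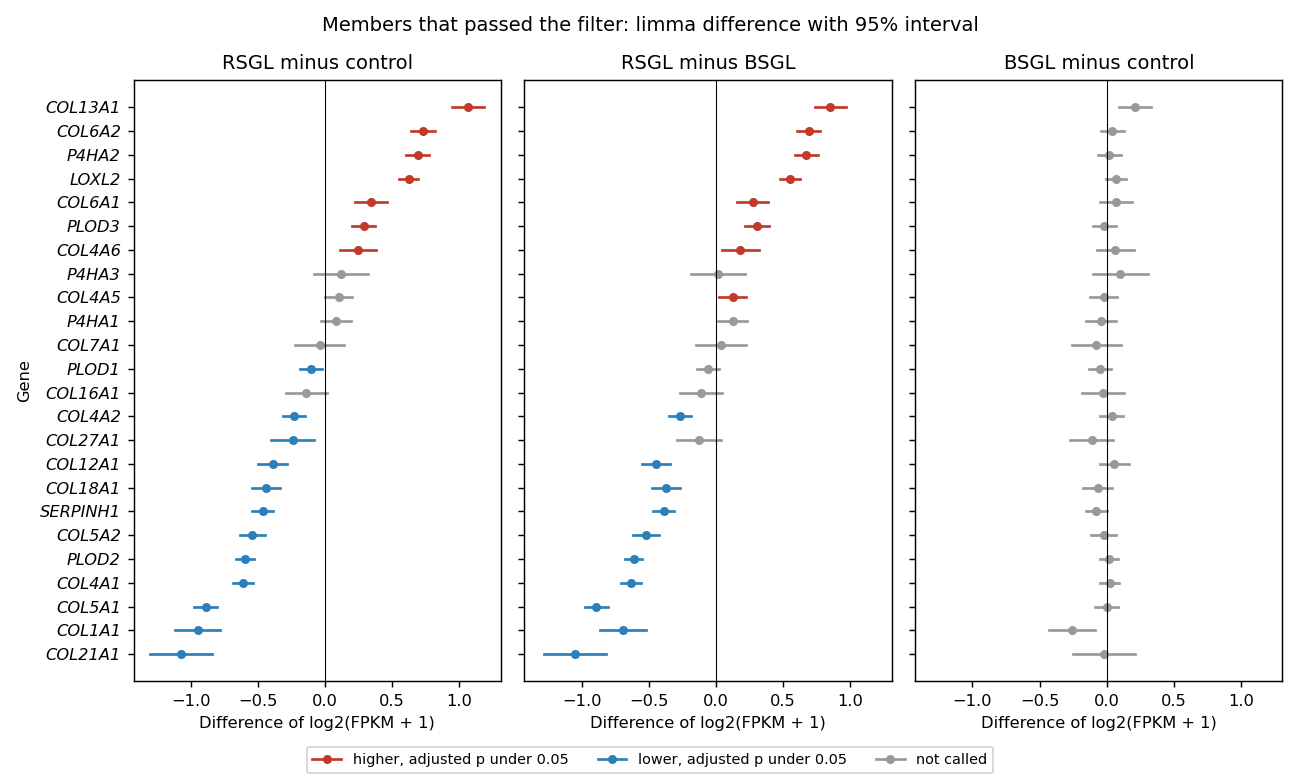
Difference of log2(FPKM + 1) with its 95% interval from limma for the 24 members that passed the filter, ordered by RSGL minus control, with called genes in colour. Relative to control the RSGL values run from -1.07 (COL21A1) to 1.07 (COL13A1). Relative to BSGL they run from -1.05 (COL21A1) to 0.86 (COL13A1). COL21A1 and COL1A1 passed the filter through the BSGL and control libraries alone, so their colour in the RSGL panels is no test. Without them the lowest RSGL value is -0.89 (COL5A1) in both comparisons. The BSGL values relative to control lie between -0.26 and 0.21 with 0 called.

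Under BSGL no single collagen gene or enzyme gene passed the test. Of the 24 members 0 were called relative to control by limma with Benjamini-Hochberg adjustment, where 0.0861% of all genes were called, 0.047% higher and 0.0391% lower. At an unadjusted p under 0.05 there were 2, COL13A1 and COL1A1, beside 6.71% of all genes, and limma-voom on recovered fragments called 0. COL13A1 was at 4.82 ± 0.179 FPKM with BSGL and 4.02 ± 0.274 FPKM in control (SD, n = 3), a difference of 0.21 (95% interval 0.095 to 0.33, adjusted p = 0.354). COL1A1 was at 1.70 ± 0.215 FPKM with BSGL and 2.22 ± 0.0715 FPKM in control, a difference of -0.26 (95% interval -0.43 to -0.088, adjusted p = 0.469). In COL13A1 the 3 BSGL libraries lay on the same side of control as the 3 RSGL libraries. They did so in COL1A1 too, but there the RSGL side was tied to the filter. Both comparisons use the same control libraries, so a shared side is a description only. The libraries of BSGL and control did not overlap for 6 of 24 members, where 12.8% of all genes did not overlap. The median of the 24 was -0.0081, against 0.0054 over all genes, and the 95% intervals together reached from -0.43 to 0.33, so differences beyond these bounds lie outside the interval of every passing member.

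The compounds were also compared with each other at the same labelled dose and time. RSGL was higher than BSGL in 8 of the 24 members and lower in 10, where 54% of all genes were called, 26.5% higher and 27.5% lower. Without COL1A1 and COL21A1, 8 of 22 were higher and 8 lower. The median difference of the 24 was -0.08 and that of these 22 was -0.0191, against -0.0056 over all genes. COL13A1 differed by 0.86 (SE 0.0525, adjusted p = 7.10e-07), COL6A2 by 0.69 (SE 0.0393, adjusted p = 4.12e-07) and COL5A1 by -0.89 (SE 0.0385, adjusted p = 6.72e-08). COL4A5 was called in this comparison, with 5.66 ± 0.0416 FPKM with RSGL and 5.10 ± 0.207 FPKM with BSGL (SD, n = 3, log2 0.13, adjusted p = 0.0360), but not in 9 of 19 alternatives (adjusted p up to 0.116). COL4A6 was lost in 5 of 19 (adjusted p up to 0.1). With a common sum of FPKM 6 members were higher and 10 lower, where 3087 of all 12775 genes were higher and 3405 lower. PLOD1 (95% interval -0.14 to 0.027), COL7A1 (-0.14 to 0.22), P4HA3 (-0.19 to 0.22), COL16A1 (-0.27 to 0.043), COL27A1 (-0.29 to 0.036) and P4HA1 (0.015 to 0.24, adjusted p = 0.0543) were not called between the compounds, although P4HA1 was called in 6 of 19 alternatives (adjusted p from 0.0283). The comparisons share libraries, so they are not independent of each other.

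Genes that act with collagens outside the family were read from lists, whose counts stand beside 27.2% of all genes called higher and 27.6% called lower in RSGL against control. Of 17 tested genes of procollagen folding and hydroxylation 10 rose under RSGL relative to control and 0 fell, with a median of 0.24 against -0.0009 over all genes. TMEM38B, a potassium channel of the endoplasmic reticulum, rose to 8.99 ± 0.616 FPKM in RSGL libraries, against 5.17 ± 0.0731 FPKM in control (SD, n = 3), FKBP14, a prolyl isomerase that acts on procollagen, rose by 0.61 (SE 0.0400) and COLGALT1, which puts galactose on hydroxylysine, by 0.43 (SE 0.0483). SLC39A13, a zinc transporter, rose by 0.30 (adjusted p = 0.00846). The other 6 called genes were P4HB, HSPA5, FKBP10, P3H1, P3H2 and CREB3L1, with rises of 0.17 to 0.31.

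Of 13 genes of procollagen export 7 rose and 3 fell (median 0.15), where 54.8% of all genes were called. SEC23B and SEC24D, coat proteins of the vesicles that leave the endoplasmic reticulum, rose by 0.70 (SE 0.0287) and 0.63 (SE 0.0806), and KLHL12, a ubiquitin ligase adaptor that enlarges these coats, by 0.33 (SE 0.0397). PDCD6, its calcium-binding co-adaptor, fell by 0.27 (SE 0.0519). Its partner PEF1 fell by 0.26 and the coat GTPase SAR1A fell by 0.15, both named after their values were seen. Of 4 tested genes of propeptide processing 2 rose and 1 fell (median 0.20). BMP1, the protease that removes the carboxy-terminal propeptide of fibril collagens, was at 9.93 ± 0.206 FPKM with RSGL and 14.2 ± 1.01 FPKM in control (SD, n = 3) and fell by 0.47 (SE 0.0572), and the protease FURIN rose by 0.33 (SE 0.0503). PCOLCE, which enhances BMP1, rose by 0.82 (SE 0.104) and was named after its values were seen.

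Of 5 tested collagen receptors 3 rose and 0 fell (median 0.15), where 27.2% of all genes rose. ITGA2, a subunit of a collagen-binding integrin, rose to 24.1 ± 1.73 FPKM with RSGL, against 6.30 ± 0.163 FPKM in control (SD, n = 3, log2 1.78, adjusted p = 1.44e-08), and CD44 and the syndecan SDC1 rose by 0.73 (SE 0.0302) and 0.15 (SE 0.0374). Of 9 genes of collagen turnover 7 rose and 1 fell (median 0.30). The lysosomal protease CTSL rose to 307.1 ± 9.74 FPKM with RSGL, against 105.5 ± 3.14 FPKM in control (SD, n = 3, log2 1.53, adjusted p = 1.65e-09), CTSB rose by 0.68 and the protease inhibitor TIMP1 by 0.57. MMP2, a gelatinase that cuts type IV collagen, was at 3.51 ± 0.169 FPKM with RSGL and 5.67 ± 0.449 FPKM in control and fell by 0.56 (SE 0.0752).

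Of 17 basement membrane and fibril partners 6 rose and 4 fell (median 0.04), a share called near the 54.8% of all genes. NID2, which links laminin to type IV collagen, rose by 0.93 (SE 0.0583), whereas TGFBI, a secreted protein that binds collagen, fell by 1.67 (SE 0.0321) and the proteoglycan VCAN fell by 1.17 (SE 0.0733). FN1, fibronectin, fell by 0.57 and MATN2, a matrilin, fell by 0.55, both named after their values were seen. All 4 partners that fell are thus named, whereas most of the 6 that rose are not. Of 8 genes of proline and ascorbate supply 3 rose and 3 fell (median 0.08). SLC2A1, a glucose transporter that also carries oxidised ascorbate, rose by 0.67 (SE 0.0382), PYCR1, which finishes proline synthesis, rose by 0.54 (SE 0.0333), and ALDH18A1, which starts it, fell by 0.12 (SE 0.0336). The copper pump ATP7A fell by 0.33, and the ascorbate transporter SLC23A1 is counted among the 3 that fell, both named after their values were seen. SLC23A1, at a mean of 0.241 FPKM with RSGL and 0.966 FPKM in control, passed the filter through the BSGL and control libraries alone. It had to be lower with RSGL, so its difference of -0.66 between RSGL and control is a description, with no test.

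Target genes of pathways known to act on collagen genes were read as well. Of 10 hypoxia targets outside the family 6 rose and 2 fell (median 0.36), and over all genes 27.2% rose and 27.6% fell. VEGFA rose to 63.4 ± 0.633 FPKM with RSGL, against 15.6 ± 0.788 FPKM in control (SD, n = 3), ANGPTL4 rose by 3.32 and NDRG1 by 1.00, and EGLN3, a HIF hydroxylase, fell by 1.36 (SE 0.0617). PFKFB4, a regulator of glycolysis, fell by 0.40 and was named after its values were seen. Of 12 TGF-beta targets outside the family 3 rose and 6 fell (median -0.23). PMEPA1, a feedback inhibitor of the pathway, fell by 1.54 (SE 0.0378) and TGFBI, which is in both lists, fell, while CYR61, a matricellular protein, rose by 0.77 (SE 0.0342). Under BSGL 0 of the tested genes of these 9 lists were called except ANGPTL4, an inhibitor of lipoprotein lipase, which rose by 0.62 (SE 0.0798, adjusted p = 0.0286). This call depended on the settings. Relative to control 0 of all genes were called with a common sum of FPKM, with no filter on low values, without the trend and robust options or with a replicate block. The same held at a mean of at least 0.1 FPKM, with only the compared groups fitted, and without BSGL replicate 1 or RSGL replicate 2. Between RSGL and BSGL, 26.5% of all genes were called higher and 27.5% lower. Of 17 folding genes 11 were higher and 0 lower, and of 9 turnover genes 6 were higher and 1 lower. Of 12 TGF-beta targets 2 were higher and 6 lower, and of 10 hypoxia targets 6 were higher and 2 lower. Export had 7 higher and 3 lower of 13, propeptide processing 2 and 1 of 4, and receptors 3 and 0 of 5. Basement membrane and fibril partners had 7 higher and 5 lower of 17, and proline and ascorbate supply 3 and 3 of 8.

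**Figure D5:**
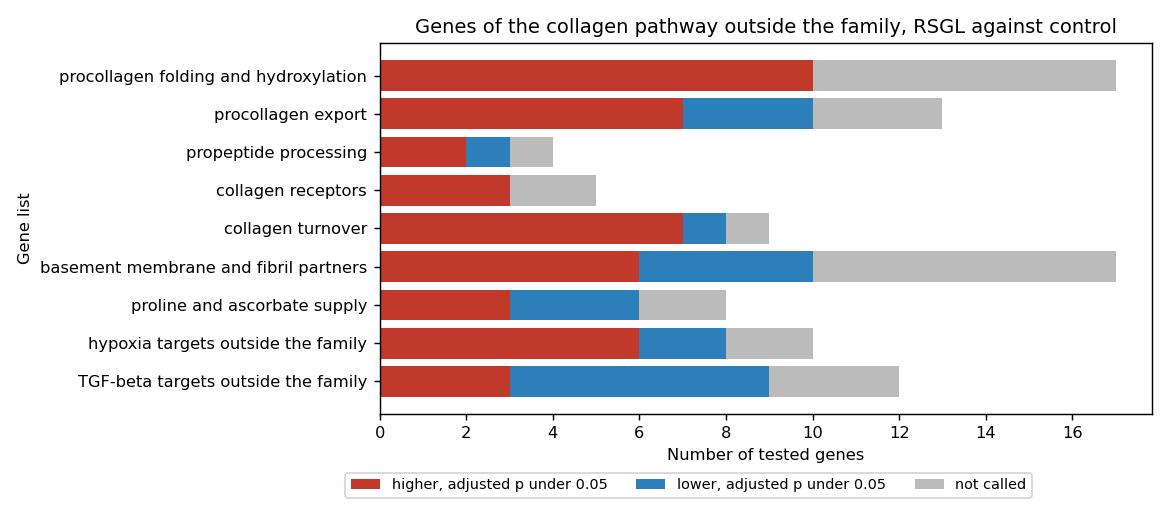
Number of tested genes that were higher, lower or not called with RSGL relative to control (limma, adjusted p under 0.05) in 9 lists. The lists hold genes that act with collagens and target genes of hypoxia and TGF-beta. All 10 called genes of procollagen folding and hydroxylation were higher, and 6 of 9 called TGF-beta targets were lower.

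Markers of cells that make fibril collagens were mostly at low levels. The counts of called markers stand beside 27.2% of all genes called higher and 27.6% called lower in RSGL against control. Of 10 fibroblast markers outside the family 5 passed the filter, VIM and TAGLN rose and THY1 fell under RSGL, and PDGFRA, DCN, FAP and POSTN were under 0.1 FPKM in every library. Their summed level was 480.5 to 515.5 FPKM with RSGL, 401.6 to 422.4 FPKM with BSGL and 392.3 to 410.8 FPKM in control, most of it from VIM, which carcinoma lines also express and which rose by 0.32 (SE 0.0368). Of 7 endothelial markers 0 passed, and all 7 were under 0.1 FPKM in every library. Of 8 epithelial markers 6 passed, 1 rose and 4 fell, and their summed level was 1281 to 1307 FPKM with RSGL, 1730 to 1785 FPKM with BSGL and 1719 to 1761 FPKM in control. The keratin KRT8 fell by 0.60, the cadherin CDH1 fell by 0.54, KRT18 fell by 0.36 and KRT7 fell by 0.32, while KRT19 rose by 0.73 (SE 0.0898). Of 8 macrophage markers 2 passed. CD68, a lysosomal protein also made outside macrophages, rose by 1.54 (SE 0.0282), and CD14 was lower with RSGL. CD14 passed the filter through the BSGL and control libraries alone, with RSGL libraries all under 1 FPKM, and so had to differ. Its difference of -1.22 between RSGL and control is a description, with no test. The macrophage list summed to 116.5 to 121.5 FPKM with RSGL, 46.7 to 47.8 FPKM with BSGL and 42.2 to 42.7 FPKM in control. In every library PTPRC, CD163, MARCO, LYZ and C1QA were under 0.1 FPKM. The part of these shifts in the collagen results was not tested.

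The remaining 32 members were scarce. In 19 every library was under 0.1 FPKM, among them COL1A2, COL2A1, COL11A1 and COL10A1, and COL19A1, COL11A2 and COL6A5 had 0 fragments in the 9 libraries. The other 13 reached 0.1 FPKM in some library and 0.959 FPKM at most. COL4A3 and COL4A4, the chains of the adult kidney and lung basement membrane, were at 0.384 ± 0.0205 and 0.459 ± 0.0282 FPKM with RSGL, 0.225 ± 0.00800 and 0.330 ± 0.0407 FPKM with BSGL and 0.211 ± 0.0301 and 0.378 ± 0.0207 FPKM in control (SD, n = 3).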

How the data were processed

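The deposited table holds FPKM per gene and library as computed by the authors, per the file headers, with gene lengths and GRCh38 positions. The submitters' processing notes list featureCounts (1.5.0-p3), HISAT2 (2.0.5) and DESeq2 (1.16.1), with no roles; no source used here gives the strand setting. Fragments were recovered from FPKM and gene length, and for values below 300 fragments 100% were whole to a tolerance of 0.01 in each library. Gene positions of 53 of 56 members lay within 10000 bases of RefSeq GRCh38.p14.

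Genes of at least 1 FPKM in at least 3 of 9 libraries were fitted as log2(FPKM + 1) with limma 3.58.1 (R 4.3.3, statmod 1.5.0), with 1 term per group, an intensity trend and robust empirical Bayes. P-values were adjusted by Benjamini-Hochberg over 12775 genes and called under 0.05. The pipeline was tested on simulated data. Chain ratios were tested by an exact permutation test (scipy 1.17.1). Every passing member is named. Other lists are represented by up to 4 called genes each, ranked by size of change, whose groups did not overlap and whose larger mean reached 5 FPKM; further names were chosen after their values were seen. Some genes that this rule picks are not reported here. Members and lists were chosen with earlier results of these data known; 170 list entries were matched and 0 stayed unmatched. Alternatives changed the pseudocount, filter, scaling, model options, groups fitted, replicate block, weights and libraries.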

Additional observations from a re-analysis of the deposited data

How the results depend on the processing

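The number of members called between RSGL and control was 19, and 18 to 19 under the other settings and 17 to 20 when 1 library was left out. Over all genes 7005 of 12775 were called, 6994 of 30093 with no filter on low values and 7554 of 18710 at a mean of at least 0.1 FPKM. The remaining settings called 6645 to 7281 of 12775 genes, and the fits without 1 library 6294 to 6869. Between RSGL and BSGL the number of members called was 18, and 16 to 19 under both kinds of change. Over all genes 6904 of 12775 were called, 6782 of 30093 with no filter on low values and 7439 of 18710 at a mean of at least 0.1 FPKM. The remaining settings called 6492 to 7158 of 12775 genes, and the fits without 1 library 6166 to 6923. Between BSGL and control the number of members called was 0 in all 19 alternatives, where 0 to 31 of all genes were called. There 2 to 4 members were at an unadjusted p under 0.05 by limma, and 0 passed by limma-voom after adjustment. With a replicate block the counts of members were 19, 17 and 0 in the order RSGL against control, RSGL against BSGL and BSGL against control. Over all 12775 genes this block gave 6792, 6696 and 0 in the same order. Equal replicate numbers did not pair the libraries: the 9 same-numbered pairs had correlations of deviations between -0.212 and 0.121, and 1 of 9 libraries correlated best with its own number. Of 456 values of single members for RSGL against control 440 kept their direction and side of the threshold, of 456 for RSGL against BSGL 431 did, and of 456 for BSGL against control 435 did. The mean log2 ratio of COL4A2 to COL4A1 differed by 0.38 to 0.43 between RSGL and control when 1 library was left out, by 0.37 to 0.42 between RSGL and BSGL, and by -0.0018 to 0.035 between BSGL and control, with 0.38, 0.36 and 0.016 at a pseudocount of 1.

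Signs turned only in members that were not called. For RSGL against control, COL7A1 was at 0.003 with quantile scaling and ranged between -0.117 and 0.0441 when 1 library was left out, and was 0.0046 without RSGL replicate 1. For RSGL against BSGL, P4HA3 was at -0.027 with quantile scaling and ranged between -0.0485 and 0.129 when 1 library was left out, with -0.0294 and -0.0091 among these. For BSGL against control, a common sum gave PLOD2 -0.0123, COL4A1 -0.0057, COL5A1 -0.0264 and P4HA2 -0.007, quantile scaling gave PLOD2 -0.0025 and COL5A1 -0.0038, and limma-voom gave COL5A1 -0.0099. When 1 library was left out, the same comparison ranged between -0.016 and 0.028 for COL5A1, -0.0955 and 0.0685 for COL21A1, -0.0453 and 0.0197 for COL5A2, -0.156 and 0.005 for COL7A1, -0.0457 and 0.009 for PLOD3, -0.0803 and 0.0052 for P4HA1, -0.0014 and 0.0435 for P4HA2, -0.009 and 0.168 for P4HA3, and -0.0712 and 0.0086 for COL16A1. The cause was not tested. Depth limits the low members, since 1 fragment in a gene of 2 kb was worth 0.0249 to 0.0280 FPKM.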

Other observations

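COL15A1, a chain of basement membrane zones that also gives rise to an endostatin-like fragment, did not pass the filter, yet its libraries fell into 3 groups that did not overlap; it was chosen after its values were seen. It had 0.169, 0.148 and 0.136 FPKM with RSGL, 0.511, 0.607 and 0.466 FPKM with BSGL and 0.294, 0.351 and 0.307 FPKM in control, which rest on 48, 173 and 104 fragments. Fitted with no filter on low values, limma with Benjamini-Hochberg adjustment gave -0.19 for RSGL against control (adjusted p = 0.0401), -0.41 for RSGL against BSGL (adjusted p = 0.00105) and 0.21 for BSGL against control (adjusted p = 0.663). COL4A3 in the same fit gave 0.19 for RSGL against control (adjusted p = 0.0201), while its head-to-head partner COL4A4 gave 0.08 (adjusted p = 0.369). COL9A2 was called there as well, at -0.095 (adjusted p = 0.0102). For RSGL against BSGL, COL4A3, COL14A1 and COL9A3 were also called in this limma fit (adjusted p from 0.0310 to 0.0479). Of 30093 genes in this fit, 6994 were called for RSGL against control and 6782 for RSGL against BSGL.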
